A study of Ovis aries with 16 samples.

Results

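The miR-29 family is represented by 3 of the 105 miRNA rows deposited for this series, MIR29A, MIR29B-1 and MIR29B-2, which were chosen by name. Small RNA was sequenced from vastus lateralis, a thigh muscle, and from the left liver lobe of 8 female Suffolk sheep. In the BPA group, 4 animals had mothers injected daily under the skin with 0.5 mg per kg of bisphenol A (BPA, a building block of polycarbonate that can activate oestrogen receptors) in corn oil between days 30 and 90 of gestation. In the control group, 4 animals had mothers that received the corn oil vehicle alone. Tissue was taken from both groups when the offspring were near 21 months old and had fasted for 48 h, 24 h after the second of 2 prostaglandin F2α injections spaced by 11 days. Exposure was through the mother, and the labels do not say whether any animals shared a mother. The 16 libraries comprise 4 for each combination of tissue and treatment, and every animal gave both tissues.

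The miR-29 miRNAs share the seed that selects their messenger RNA targets, and they are best known for holding down the genes of the extracellular matrix, among them fibrillar collagens, elastin and fibrillin. They also target the de novo DNA methyltransferases. In liver, loss of miR-29 from stellate cells accompanies fibrosis in rodents and in humans, and in skeletal muscle the family takes part in the differentiation of myoblasts and in insulin signalling. In humans the genes form a pair of clusters, miR-29b-1 with miR-29a and miR-29b-2 with miR-29c, so that the miR-29b form arises from both loci.

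The 3 rows hold 2 distinct measurements. MIR29B-1 and MIR29B-2, which encode the same mature form, had the same value in 16 of 16 libraries, and no other miRNA row was identical to another. The same reads were therefore entered in both rows, and they cannot be assigned to either gene. Only the values of MIR29B-1 are described below, and every statement on those values holds for MIR29B-2. By RefSeq's annotation of ARS-UI_Ramb_v3.0, a sheep assembly that need not be the one the authors used, MIR29A lies within the lncRNA locus LOC106991099 between the coding genes KLF14 and MKLN1. MIR29B-1 lies within the lncRNA locus LOC114117256 next to CD46, and MIR29B-2 lies on the other side of CD46. In this annotation MIR29B-1 therefore does not lie beside MIR29A, unlike in the human arrangement given above. No miR-29c row was analysed here.

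Values are deposited normalized counts, in which a read count was divided by 1 size factor per library. The miRNA reads of a library totalled 578150 to 1383538 in BPA livers against 94393 to 240815 in control livers. In muscle they totalled 596919 to 1044886 in BPA animals against 471691 to 559705 in controls. MIR29A rested on 6065 to 13411 reads in BPA livers and 1515 to 4078 in control livers, and on 2730 to 4329 reads in BPA muscle and 2326 to 2696 in control muscle. MIR29B-1 was thinly covered, with 23 to 67 reads in BPA muscle, 22 to 29 in control muscle, 45 to 99 in BPA livers and 12 to 36 in control livers. The values of MIR29B-1 therefore carry wide counting intervals.

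**Figure D1:**
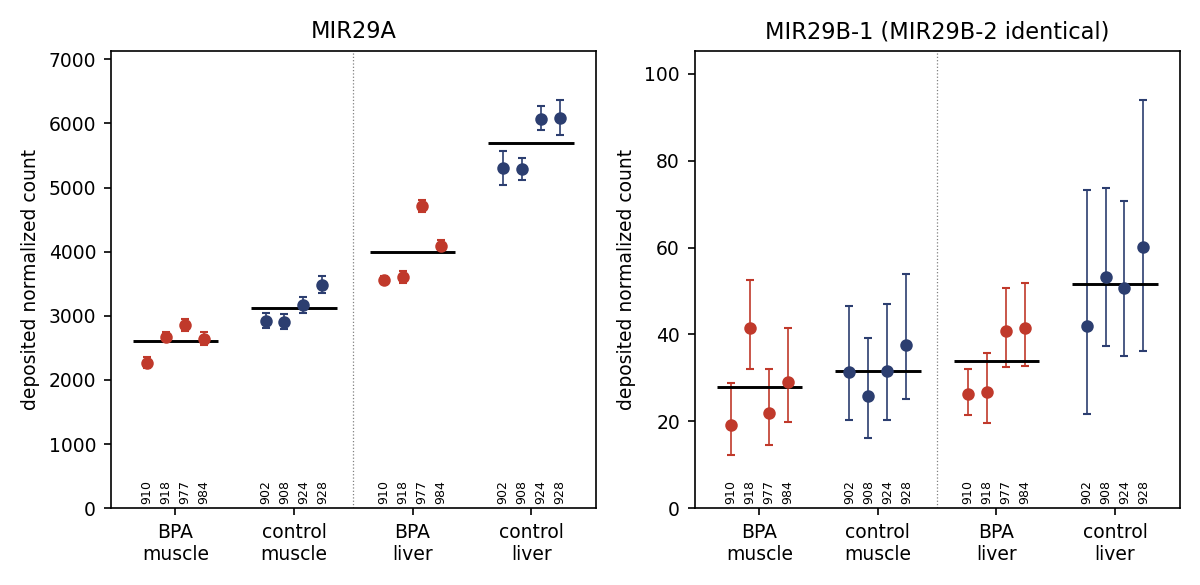
Deposited normalized counts of MIR29A (left) and of MIR29B-1, whose values MIR29B-2 repeats (right). Each point is 1 library with its animal number below it. Bars through the points are exact Poisson 95% intervals of the read count, which cover counting error only. Horizontal lines are group means (n = 4). For MIR29A the BPA libraries lie at 2271 to 2849 in muscle and 3559 to 4707 in liver, below all control libraries of the same tissue. Levels of the 2 tissues in this plot are not on a common scale.

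MIR29A had lower values in the livers of BPA animals. It stood at 3559, 3604, 4707 and 4085 in BPA livers 910, 918, 977 and 984, against 5300, 5284, 6076 and 6090 in control livers 902, 908, 924 and 928. The groups did not overlap, and the mean was 3989 ± 535 in BPA livers and 5687 ± 457 in control livers (SD, n = 4 each), a difference of -29.9%. All 4 BPA libraries lay below all 4 control libraries for 8 of the 78 miRNAs tested in liver (10.3%), and these 8 include the 3 family rows. The BPA libraries lay above all 4 for 6.41%, so a separation of this kind is not rare in these data. The log2 fold change, on the log2(value + 1) scale, was -0.52 ± 0.18 (SE, 95% interval -0.91 to -0.12), and it did not pass after adjustment over all miRNAs (limma, Benjamini-Hochberg adjusted p = 0.0790). The liver groups also stayed apart after rescaling (at most 3847 in BPA livers and at least 4351 in control livers) and as a share of miRNA reads (at most 1.41% in BPA livers and at least 1.48% in control livers). MIR29A ranked at place 14 of 78 by p. By this test 11.5% of the miRNAs were called in liver (9 of 78, with 5 or 6.41% higher and 4 or 5.13% lower), with none of the 3 family rows among them.

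MIR29B-1 showed the same order in liver with a wider spread. It was at 26.3, 26.7, 40.9 and 41.4 in BPA livers 910, 918, 977 and 984 and at 42.0, 53.3, 50.7 and 60.2 in control livers 902, 908, 924 and 928. The groups were separated by less than 1 unit, between 41.4 in BPA liver 984 and 42.0 in control liver 902. After rescaling these 2 libraries were tied at 34.5, and BPA muscle 984 had the same value. The family rows are among those that set the rescaling factor, so the tie does not show equal levels. The value of control liver 902 rests on 12 reads, for which the Poisson 95% interval spans 21.7 to 73.3. Means were 33.8 ± 8.45 in BPA livers and 51.5 ± 7.54 in control livers (SD, n = 4 each), and the log2 fold change was -0.61 ± 0.30 (SE; limma adjusted p = 0.2370). The median log2 fold change over all 78 miRNAs was 0.054.

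Depth and library composition differed between the treatments in liver. snRNA reads per 100 miRNA reads ranged from 0.137 to 0.279 in BPA livers and from 12.4 to 41.2 in control livers, and snoRNA reads from 0.944 to 2.92 in BPA livers and from 3.69 to 8.48 in control livers. The part of depth and composition in the values of MIR29A was not tested, and its difference is one relative to other miRNAs. With 1 size factor per library set over all 4 deposited tables, the median miRNA was at 1.51 and MIR29A at 0.95 on the log2 scale (limma adjusted p = 0.0359), higher in BPA livers. Relative to the median miRNA, MIR29A was at -0.56 on that scale and at -0.57 on the deposited one. A factor per library moves all its miRNAs alike, so this distance is nearly fixed by construction and does not test the scaling. As a share of miRNA reads, MIR29A made up 1.15 ± 0.191% in BPA livers and 1.62 ± 0.146% in control livers (SD, n = 4 each). Library codes in the labels were also split by treatment. Among codes up to 79, BPA livers 977 and 984 had 4707 and 4085 and the single control liver, 902, had 5300. Each higher range of codes held livers of a single treatment. A fit with the code range as a covariate therefore compares only control liver 902 with BPA livers 977 and 984. Its log2 fold change was -0.27 for MIR29A and -0.028 for MIR29B-1, for which liver 902 had 12 reads. With a single control liver these values are not an adjusted estimate over all livers. The part of the code in the difference was not tested.

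**Figure D2:**
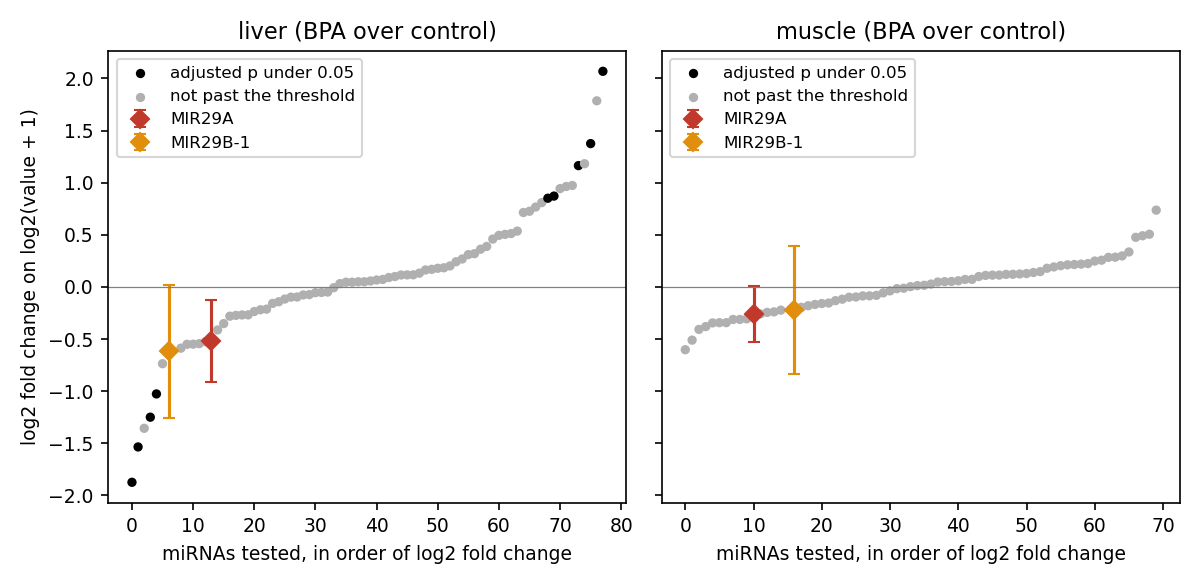
Log2 fold change (BPA over control) of each miRNA tested in liver (78, left) and in muscle (70, right), in order of size. Diamonds are MIR29A and MIR29B-1 with the 95% interval of the limma fit, black points are miRNAs with an adjusted p under 0.05, and grey points are the rest. MIR29A lies at -0.52 in liver and -0.26 in muscle, and is not called in either.

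In thigh muscle the values of MIR29A were also lower in BPA animals, by less. BPA muscles 910, 918, 977 and 984 had 2271, 2674, 2849 and 2643, against 2926, 2908, 3170 and 3485 in control muscles 902, 908, 924 and 928. On the deposited scale the groups did not overlap, with 2849 in the highest BPA muscle and 2908 in the lowest control muscle. That separation was lost on the other scales. Rescaled over all 16 libraries, BPA muscle 977 (3707) lay above control muscles 902 (3673) and 908 (3661). As a share of miRNA reads, BPA muscles 977 (0.473%) and 984 (0.471%) lay above control muscle 908 (0.442%). Means were 2609 ± 243 in BPA muscle and 3122 ± 270 in control muscle (SD, n = 4 each), a difference of -16.4%. The log2 fold change was -0.26 ± 0.13 (SE, 95% interval -0.53 to 0.011) and did not pass (limma adjusted p = 0.7060). No miRNA was called in muscle by limma (0% of 70), and 3 had an unadjusted p under 0.05. All 4 BPA muscles lay below all control muscles for 2.86% of the 70 miRNAs, MIR29A among them, and above all control muscles for 4.29%.

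MIR29B-1 overlapped between the treatments in muscle. Its values were 19.1, 41.4, 22.0 and 29.2 in BPA muscles 910, 918, 977 and 984, and 31.5, 25.8, 31.6 and 37.5 in control muscles 902, 908, 924 and 928. BPA muscle 918 was the highest of the 8 and BPA muscle 910 the lowest. Means were 27.9 ± 9.91 in BPA muscle and 31.6 ± 4.75 in control muscle (SD, n = 4 each), with a log2 fold change of -0.22 ± 0.29 (SE; limma adjusted p = 0.8407).

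The codes of control muscle all lay between 73 and 76 and those of BPA muscle at 77 or above, so treatment and the order of the codes cannot be told apart in muscle. As RPM, reads scaled to a fixed total of miRNA reads, where the median miRNA moved to 0.13, the log2 fold change of MIR29A in muscle was -0.15, and with 1 size factor over the 4 tables, where the median was -0.21, it was -0.49. Relative to that median it was -0.27 on all 3 scales, a distance that a factor per library leaves nearly unchanged by construction.

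Each animal gave both tissues, and the deposited values of MIR29A ordered the animals nearly alike in both. Control animal 928 had the highest value in muscle and in liver, followed in both by 924, 902 and 908. Below them, in both tissues, lay BPA animal 977, and BPA animal 910 had the lowest value in muscle and in liver. BPA animals 918 and 984 changed places between the tissues. This order depended on the scale. After rescaling, BPA animal 977 lay above control animals 902 and 908 in muscle, and control animal 908 (4434) lay above 902 (4351) in liver. As a percentage of the deposited control mean of the tissue, BPA animals were at 72.7 to 91.3% in muscle and at 62.6 to 82.8% in liver, and control animals at 93.1 to 112% in muscle and 92.9 to 107% in liver. MIR29A and MIR26B, another miRNA with a conserved seed family, were the 2 of 70 miRNAs (2.86%) with all BPA libraries below all control libraries in both tissues on the deposited scale. MIR29A did not meet that criterion after rescaling or as a share of miRNA reads. No correlation over animals is given, because the animals fall into separate treatment clusters of 4.

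**Figure D3:**
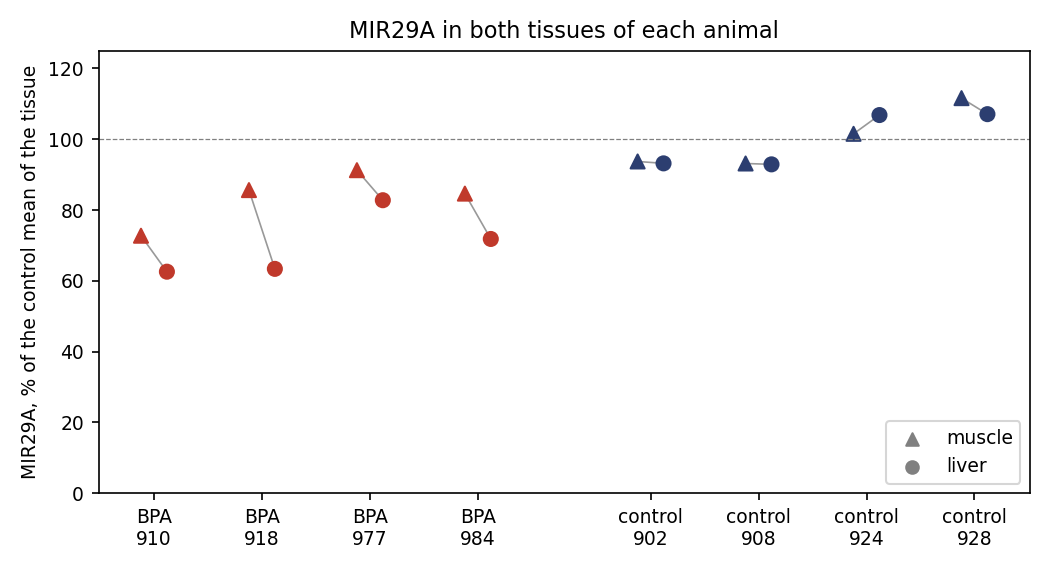
MIR29A in muscle (triangles) and liver (circles) of each animal, in deposited values as a percentage of the mean of the 4 control animals in that tissue (dashed line, 100%). Lines join the 2 tissues of an animal. BPA animals lie at 72.7 to 91.3% in muscle and 62.6 to 82.8% in liver, and control animals at 92.9% or above in both tissues.

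A mean over both tissues of each animal was then compared between 4 BPA and 4 control animals, a comparison added after these values had been seen. MIR29A was lower in BPA animals, with a log2 fold change of -0.39 ± 0.12 (SE; limma adjusted p = 0.0418, and 0.0080 to 0.3304 over its alternatives). Of 76 miRNAs 13.2% were called, 7 (9.21%) higher and 3 (3.95%) lower, and MIR29A was the last of the 3 lower ones by p, after MIR30B and MIR26B. The call did not hold without control animal 908, 924 or 928 or BPA animal 910, 918 or 984, with log2 fold changes of -0.42, -0.37, -0.34, -0.33, -0.37 and -0.40 (limma adjusted p = 0.0571, 0.1156, 0.1435, 0.1651, 0.1316 and 0.0714). It did not hold as RPM either (-0.32, adjusted p = 0.0792), and with 1 size factor over the 4 tables the value was 0.23 (adjusted p = 0.3304). MIR29B-1 had a log2 fold change of -0.42 ± 0.19 (SE) and did not pass (limma adjusted p = 0.1861).

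Whether the BPA effect differed between the tissues was tested as an interaction, muscle minus liver, over all 16 libraries. It was 0.30 ± 0.21 for MIR29A and 0.43 ± 0.38 for MIR29B-1 on the log2 scale (SE), and neither passed (limma adjusted p = 0.4521 and 0.5317). The 95% interval for MIR29A, -0.14 to 0.74, covers both no difference and a difference as large as the liver effect. By this test 2.67% of 75 miRNAs were called, 1.33% higher and 1.33% lower. The fit took the 16 libraries as independent, although every animal gave both tissues, so its interval does not use the pairing. A fit with the animal as block, using a single correlation of -0.20 for all miRNAs, did not call MIR29A or MIR29B-1 either. With 1 size factor over the 4 tables both terms passed with the opposite sign, at -1.72 and -1.53 (limma adjusted p = 0.0016 and 0.0168), where the median miRNA was at -1.98. Within animals, the ratio of MIR29A in muscle to MIR29A in liver, on a scale common to both tissues, was 0.919 to 1.08 in BPA animals and 0.783 to 0.844 in control animals. These ranges did not overlap, as was so in that direction for 4% of the 75 miRNAs, MIR29A among them.

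The tissue difference of the family depended on the scale. After median-of-ratios rescaling over all 16 libraries, MIR29A averaged 3517 ± 382 in muscle and 3969 ± 849 in liver (SD, n = 8 each), with a log2 difference, muscle over liver, of -0.15 ± 0.10 (SE; limma adjusted p = 0.1899). MIR29B-1 averaged 36.4 ± 8.38 in muscle and 35.1 ± 10.1 in liver, with a log2 difference of 0.075 ± 0.19 (SE; limma adjusted p = 0.7132). By contrast 76% of the 75 miRNAs were called between the tissues, 27 (36%) higher and 30 (40%) lower in muscle. The fit took the libraries as independent and did not use the pairing of tissues within animals. Within each tissue the authors' values were scaled alone, and on the deposited scale the differences were -0.74 for MIR29A and -0.49 for MIR29B-1 (limma adjusted p = 1.87e-06 and 0.0226).

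As RPM they were -1.53 and -1.28 (limma adjusted p = 1.34e-10 and 3.74e-06). MIR133, a miRNA of striated muscle, had 244661 to 373488 normalized counts in muscle, and with it left out, an alternative added after the data were seen, the RPM differences were -0.45 and -0.21 (limma adjusted p = 7.83e-04 and 0.3291). The median over all miRNAs shifted with each scale, to -0.14 after rescaling, -0.72 as deposited, -0.31 with 1 size factor over the 4 tables and -1.52 as RPM. MIR29A lay between -0.014 and 0 from that median on the 4 scales, and MIR29B-1 lay above it by 0.21 to 0.23. These distances are nearly the same on every scale by construction, since a factor per library moves all its miRNAs alike.

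**Figure D4:**
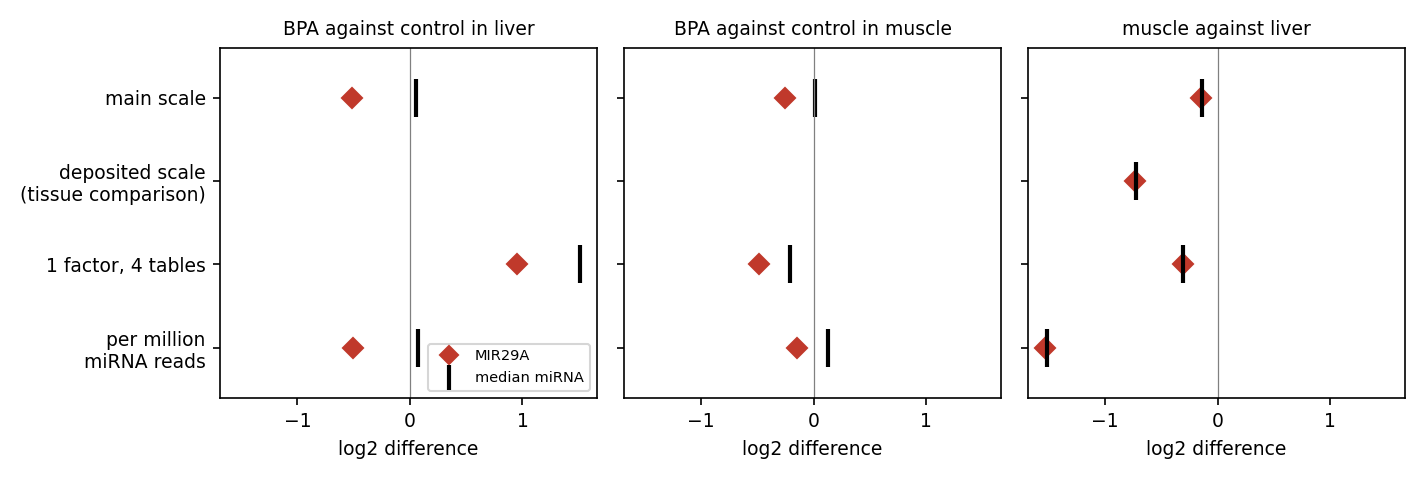
Log2 difference of MIR29A (diamonds) and the median over all miRNAs tested (vertical ticks) under each scaling, for BPA over control in liver and in muscle and for muscle over liver. The main scale is the deposited one within a tissue and the rescaled one between tissues. Relative to the median, MIR29A lies at -0.57 in liver and at -0.27 in muscle on the main scale, and on the median between the tissues. Within a panel this distance is nearly the same on every scale by construction, since a factor per library moves all its miRNAs alike.

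On the common scale the order of group means for MIR29A was control liver (4674 ± 330), control muscle (3788 ± 140), BPA liver (3265 ± 498) and BPA muscle (3246 ± 355), each with SD and n = 4. Control liver and control muscle did not overlap (4351 to 5015 and 3661 to 3929), whereas control muscle overlapped BPA livers (2653 to 3847), and BPA liver and BPA muscle differed by less than their spread. For MIR29B-1 the order was control liver (42.4 ± 6.39), control muscle (38.2 ± 4.11), BPA muscle (34.5 ± 11.7) and BPA liver (27.7 ± 7.36), and the ranges of neighbours in it overlapped.

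The ratio between the family rows does not depend on any scaling. MIR29B-1 had 0.773 to 1.55 reads per 100 reads of MIR29A in BPA muscle and 0.889 to 1.08 in control muscle. In liver it had 0.738 to 1.01 in BPA animals and 0.792 to 1.01 in controls. The ranges overlapped in both tissues, and the highest ratio belonged to BPA muscle 918. After subtraction of group means the 2 rows correlated over the 16 libraries with a Pearson r of 0.65, a description over libraries that share animals and size factors. Among 73 other miRNAs, MIR30B (r = 0.68), MIR107 (0.67) and MIR154A (0.61) followed MIR29A most closely. MIR30B (0.70), MIR106A (0.63) and MIR17 (0.52) were closest to MIR29B-1. In muscle, MIR154A was near 0, at 0.20 ± 0.41 in BPA animals and 0.64 ± 0.74 in controls. MIR106A was also low there, at 2.16 ± 1.78 and 3.16 ± 0.81 (SD, n = 4 each). MIR30B fell in BPA livers, to 391.7 ± 198.6 against 1308 ± 220.2 in control livers (SD, n = 4 each; log2 fold change -1.87, limma adjusted p = 0.0048).

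The lncRNA loci that enclose the genes gave few reads. LOC106991099, around MIR29A, had 3, 6, 7 and 9 reads in BPA livers and 5, 7, 12 and 21 in the shallower control livers, or 4.07 ± 2.49 against 16.3 ± 8.96 normalized counts on the scale of the lncRNA table (SD, n = 4 each). It fell in BPA livers, by 1.73 ± 0.51 on the log2 scale (SE; limma adjusted p = 0.0202), where 35.5% of 124 lncRNA loci were called. Scaled to the miRNA reads of each library, its log2 fold change was -2.86 ± 0.54 (SE; limma adjusted p = 0.0028). The share of loci called on that scale is not given here, so this value cannot be set against other loci. The call on the scale of the lncRNA table did not hold without control liver 924 or 928 or BPA liver 910 or 918 (limma adjusted p = 0.0598, 0.0597, 0.0562 and 0.0550, with log2 fold changes of -1.45, -1.59, -1.56 and -1.58). In muscle it had 8.97 ± 3.24 normalized counts in BPA animals and 7.83 ± 6.56 in controls, with a log2 fold change of 0.37 ± 0.49 (SE; limma adjusted p = 0.7200), where 5.3% of 151 loci were called. LOC114117256, around MIR29B-1, had 1 read in all BPA livers together and 0 in control livers, and 1 to 3 reads per BPA muscle and 1 to 5 per control muscle, too few for a test. Reads in these loci may come from any RNA inside them, and whether counting used the strand is not given in the sources used here.

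Other miRNAs with roles like those of miR-29 were counted by list. Of 10 tested miRNAs of fibrosis and extracellular matrix, 1 rose in BPA livers, 1 fell and 8 did not pass, with a median log2 fold change of -0.011 against 0.054 over all miRNAs. These 2 of 10 stand beside 11.5% called over all 78 miRNAs. The one that rose was MIR200B, which restrains the epithelial to mesenchymal transition, at 1177 ± 174 in BPA livers and 294.9 ± 118.8 in control livers (SD, n = 4 each; limma adjusted p = 7.08e-04), and the one that fell was MIR30B. MIR21, a miRNA raised in fibrosis, was at 4580 ± 1372 in BPA livers and 4730 ± 803 in control livers (limma adjusted p = 0.9069). Of 7 miRNAs of insulin and glucose handling, MIR26B fell in liver and 6 did not pass (median 0.050), also beside 11.5% called over all miRNAs. MIR26B was at 9734 ± 1633 in BPA livers and 20037 ± 4894 in control livers (SD, n = 4 each; limma adjusted p = 0.0055). MIR103 and MIR107, which restrain insulin sensitivity in mouse liver, had log2 fold changes of 0.32 and 0.11 (limma adjusted p = 0.5019 and 0.9028).

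Of 8 miRNAs that target chromatin enzymes, as miR-29 does with the DNA methyltransferases, MIR200B rose in liver, MIR26B fell and 6 did not pass (median 2.9e-04), so that 2 of 8 were called where 11.5% were over all miRNAs. Of 6 miRNAs of myogenesis, none passed in liver (median -0.064). In muscle no member of the 4 lists passed, and the medians were -0.057 for fibrosis, -0.16 for insulin, -0.25 for chromatin and 0.056 for myogenesis, against 0.014 over all miRNAs. MIR200B and MIR26B each stand in more than 1 of these lists, and the lists were drawn up with earlier results of these data known.

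Markers of cell types were followed because bulk tissue cannot tell fewer cells of a type from less RNA per cell. The liver markers MIR148A and MIR194 (2 of 4 listed hepatocyte miRNAs were in the table) summed to 40787 to 66109 in BPA livers and 45135 to 61597 in control livers. In muscle they summed to 1372 to 1922 in BPA animals and 1311 to 2028 in controls. MIR133, the 1 of 5 muscle fibre markers present, was at 122 to 574 in BPA livers and 115 to 717 in control livers. In muscle it was at 244661 to 370470 in BPA animals and 318172 to 373488 in controls, with a log2 fold change of -0.24 ± 0.16 (SE; limma adjusted p = 0.8407), beside -0.26 for MIR29A. The fibroblast and smooth-muscle pair MIR143 and MIR199A (2 of 4) summed to 27447 to 52968 in BPA livers and 26709 to 40182 in control livers, and to 7999 to 21246 in BPA muscle and 15907 to 28471 in control muscle.

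Leukocyte MIR150 (1 of 4) was at 231 to 493 in BPA livers and 199 to 549 in control livers, and at 1485 to 2760 in BPA muscle and 1368 to 2028 in control muscle. Endothelial MIR221 (1 of 3) was at 435 to 703 in BPA livers and 345 to 730 in control livers, and at 281 to 467 in BPA muscle and 296 to 390 in control muscle. The epithelial markers MIR200A, MIR200B and MIR200C (3 of 5) summed to 1504 to 1965 in BPA livers and 482 to 1367 in control livers, the 1 marker sum without overlap in liver. Of the 3 only MIR200B passed. MIR200A was at 456 ± 116 in BPA livers and 526 ± 226 in control livers, and MIR200C was at 77.4 ± 66.0 in BPA livers and 55.9 ± 40.7 in control livers (SD, n = 4 each; limma adjusted p = 0.9028 and 0.6797). In muscle they summed to 36.6 to 103 in BPA animals and 39.9 to 94.4 in controls. No listed marker in the table was at 0 throughout a group, and the 2 erythroid markers listed had no row in it. The part of cell composition in the MIR29A values was not tested.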

How the data were processed

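The authors deposited normalized counts, a signal in which each read count was divided by a size factor, in 4 tables (105 miRNAs, 694 snoRNAs, 1148 snRNAs and 2973 lncRNAs). Tools named, without roles, in the submitters' processing notes are featureCounts 1.6.1, STAR 2.6.0c and cutadapt 3.2. The sources used here do not give the build, annotation, normalization tool or treatment of multi-mapping reads. Every value was a whole multiple of the library's smallest value (tolerance 0.001), which was read as 1 read. Median ratios to the mean profile were equal within each tissue, so the size factors had been set per tissue, which offsets muscle minus liver by -0.59 on the log2 scale.

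BPA was compared with control in each tissue (4 against 4) on log2(deposited value + 1) in limma 3.58.1 (R 4.3.3, trended prior variance), for miRNAs with a mean of at least 5, two-sided, Benjamini-Hochberg adjusted over all miRNAs tested, threshold 0.05. Such folds understate changes of low miRNAs. Tissue and interaction used all 16 libraries, rescaled together, with no term for the animal in the main fit. Replicate numbers are animal numbers, so they pair the libraries across tissues, but over 76 miRNAs the deviations of the 2 tissues of an animal correlated by -0.68 to 0.44. The fit passed a test on simulated liver values with planted changes larger than those of the family, so changes of the family's size were not covered. Replicates differed beyond sampling noise (chi-square over its degrees of freedom at least 18.2).

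Named are all members, called list members, and the 3 miRNAs most correlated with each member. Members and lists were chosen with earlier results of these data known. All 105 miRNA names matched the reference gene table. No miRNA sequences are shown, since no sequence table was used here.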

Additional observations from a re-analysis of the deposited data

How the results depend on the processing

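In BPA against control, leaving out each library in turn left MIR29A at -0.60 to -0.47 in liver and -0.30 to -0.19 in muscle, and MIR29B-1 at -0.72 to -0.51 and -0.42 to -0.066, on the log2 scale, with no call (limma, smallest adjusted p = 0.0746). For muscle over liver, leaving out each animal gave -0.17 to -0.13 for MIR29A and -0.058 to 0.16 for MIR29B-1, the turned sign without BPA animal 918, and for the interaction 0.26 to 0.34 and 0.16 to 0.60. With 1 size factor over the 4 tables the sign turned in liver for MIR29A (0.95) and MIR29B-1 (0.82), in the interaction (-1.72 and -1.53, both then past the threshold), in the mean over both tissues (0.23 and 0.19) and for MIR29B-1 in muscle over liver (-0.084). For muscle over liver, the deposited scale gave -0.74 and -0.49, RPM -1.53 and -1.28, and RPM without MIR133 -0.45 and -0.21. The sign turned for MIR29B-1 in all 3, and MIR29A passed in all 3. Averaged over both tissues, MIR29A was at -0.32 as RPM and at -0.45 to -0.33 without single animals, where MIR29B-1 was at -0.49 to -0.29. With the animal as replicate block the paired fit gave -0.15 (limma adjusted p = 0.2518) for MIR29A and 0.075 for MIR29B-1 in muscle over liver, 0.30 and 0.43 in the interaction, and changed no call of the family. Other pseudocounts and filters and a single miR-29b row changed no call or direction. With a filter at a mean of 50, MIR29B-1 was not tested. The number of miRNAs called was 9 in liver, 4 to 15 without single libraries, and 65 under the factor shared by the 4 tables. In the interaction it was 2, 0 to 5 without single animals, 0 with the replicate block and 70 under the shared factor. Over both tissues it was 10, 5 to 10 without single animals and 53 under the shared factor. The cause of these shifts was not tested. The planned tests on whole reads with edgeR and DESeq2 were not run, because too few low miRNA values were present to check the recovery of reads. Depth limits MIR29B-1, with as few as 12 reads in a library.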
